A study of Mus musculus with 4 samples.

Results

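Vascular endothelial growth factor (VEGF) and angiopoietin signalling was followed through 10 genes: the ligands Vegfa, Vegfb, Vegfc, Angpt1, Angpt2 and Angpt4, the secreted protein gene Esm1, and the receptors Kdr, Flt1 and Tek. They are named genes, 6 ligands, 3 receptors and Esm1, picked with earlier results of these data known, and are 10 of the 26601 genes present in all tables. All 10 were found in every table. The cells were Td+ endosteal bone marrow cells, released by protease from metaphyseal bone after the periosteum and central marrow were removed. They came from male Col2-Cre Rosa26-lsl-tdTomato (Col2:Td) mice of strain B6SJL/F1, in which Cre driven by Col2 switches on tdTomato for good in chondrocytes and in the mesenchymal cells of the bone. Mice of the same age were pooled into 1 library, from 2 mice at 1 month and 3 mice each at 1.5, 3 and 16 months, and every library carries both the Cre and the reporter. The sort took the top 1% of Td+ cells, or the Td peak where it stood apart, and cells outside the mesenchymal lineage came with it. After filtering, 24084 cells were used, namely 8308, 5453, 4180 and 6143 at 1, 1.5, 3 and 16 months.

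VEGF ligands act through receptor tyrosine kinases on endothelial cells. Vegfa binds Kdr, its main signalling receptor, and Flt1, which binds it tightly and is also made as a soluble form. Vegfb binds Flt1, and Vegfc is best known as a lymphatic growth factor that binds Flt4 and, once processed, Kdr. Angiopoietins bind Tek (Tie2), with Angpt1 as an activating ligand, Angpt2 as a ligand whose effect depends on context and Angpt4 as a further ligand. Esm1 encodes endocan, a secreted proteoglycan known as a marker of endothelial tip cells. In bone, vessels run next to the growth plate and through the marrow, and stromal cells surround the sinusoids.

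Cells were clustered without the 10 genes, and clusters were named from markers, with the suffix -like. The mesenchymal classes were early and late mesenchymal progenitors (EMP, LMP), osteoblasts (OB), osteocytes (Ocy), cells with adipocyte-lineage markers (AD) and chondrocytes (CH). AD-like cells numbered 272, 1237, 421 and 3721 at 1, 1.5, 3 and 16 months, the order used for every set of 4 values below. Endothelial-like cells numbered 165, 32, 247 and 121, and mural-like cells (pericytes and smooth muscle) 24, 64, 30 and 22. Levels are unique molecular identifiers (UMIs) of a gene, added up within a class and library and scaled to CPM, the usual count per 1e+06 UMIs. Parentheses after a CPM or a ratio hold its 95% counting interval, which covers nothing but counting error. Each age was 1 library without a replicate, so no test was made and age cannot be told apart from library. The sequencing reads 3′ ends, so isoforms were not separated and levels were not compared between genes.

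The endothelial-like class was checked against 8 endothelial markers, among them Cdh5, Pecam1 and Emcn. Their summed level was 5308, 4080, 6188 and 4843 CPM in endothelial-like cells, against 71.9, 30.2, 45.4 and 47.5 CPM in all mesenchymal cells. The same cells also carried AD markers, at 3.61%, 29.8%, 8.53% and 30.1% of the level of AD-like cells. Levels of Esm1 and Vegfc in endothelial-like cells are therefore given with and without the cells that carried most of these markers. For some other members only part of the values without these cells is given. Neutrophil-like cells served as the background, with a limit for Vegfa at 16 months that is given with the age ratios. At 1.5 months they were 51 cells that also held 35415 CPM of chondrocyte markers. Between 30 and 61 cell barcodes were shared between pairs of the 3 younger libraries, and 1 or 2 between each of these and the 16 month library.

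Reference sequence upstream of 5 of the genes shows the DNA next to the start of each receptor, of Esm1, the member with the largest ratios of AD-like over other mesenchymal cells, and of Angpt4, the member whose ratio turned in that comparison. Each line holds the 250 bases before the RefSeq start on GRCm38.p6, written 5′ to 3′ on the strand of the gene. The windows are chr5:75978456-75978705 (minus strand) for Kdr, chr5:147726012-147726261 (minus) for Flt1, chr4:94739039-94739288 (plus) for Tek, chr13:113209409-113209658 (plus) for Esm1 and chr2:151910957-151911206 (plus) for Angpt4. Capitals mark the hypoxia response core ACGTG or GCGTG, the ETS core AGGAAG and the cyclic AMP response element TGACGTCA, each searched on both strands.
Kdr: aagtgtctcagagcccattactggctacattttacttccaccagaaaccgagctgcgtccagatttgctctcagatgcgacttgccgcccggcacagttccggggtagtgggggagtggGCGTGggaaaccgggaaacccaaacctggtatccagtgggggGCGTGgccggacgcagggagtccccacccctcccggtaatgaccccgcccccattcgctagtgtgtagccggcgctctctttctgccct
Flt1: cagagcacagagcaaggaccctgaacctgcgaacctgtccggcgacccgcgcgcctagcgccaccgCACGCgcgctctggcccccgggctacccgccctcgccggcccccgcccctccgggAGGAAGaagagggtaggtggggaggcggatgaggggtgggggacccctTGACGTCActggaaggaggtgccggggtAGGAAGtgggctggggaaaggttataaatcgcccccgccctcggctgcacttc
Tek: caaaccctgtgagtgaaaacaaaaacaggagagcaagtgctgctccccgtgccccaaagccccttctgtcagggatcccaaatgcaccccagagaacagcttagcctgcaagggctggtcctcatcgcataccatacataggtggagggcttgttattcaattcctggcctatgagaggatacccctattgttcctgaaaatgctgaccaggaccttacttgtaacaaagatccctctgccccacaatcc
Esm1: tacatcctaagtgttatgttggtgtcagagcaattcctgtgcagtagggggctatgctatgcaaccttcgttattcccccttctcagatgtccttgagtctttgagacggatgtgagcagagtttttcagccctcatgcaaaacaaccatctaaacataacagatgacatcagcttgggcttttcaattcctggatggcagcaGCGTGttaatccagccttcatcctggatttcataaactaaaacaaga
Angpt4: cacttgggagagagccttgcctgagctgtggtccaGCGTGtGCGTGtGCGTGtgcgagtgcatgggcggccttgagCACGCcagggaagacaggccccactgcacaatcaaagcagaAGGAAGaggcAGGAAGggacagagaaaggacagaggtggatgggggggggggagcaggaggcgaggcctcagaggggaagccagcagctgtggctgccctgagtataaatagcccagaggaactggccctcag

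Kdr held 2 hypoxia cores, 131 and 89 bases before the start. Flt1 held 1 on the reverse strand at 184 bases, 2 ETS cores at 129 and 53 bases and the cyclic AMP element at 81 bases. Tek held none of the 3 motifs, and Esm1 held 1 hypoxia core at 47 bases. Angpt4 held 4 hypoxia cores, at 215, 209, 203 and 174 bases, the last on the reverse strand, and 2 ETS cores at 133 and 123 bases. Of 32851 windows of the same length, 38.6% held a hypoxia core, 29.5% an ETS core and 1.55% the cyclic AMP element, so only the last is uncommon among promoters. The GC content was 61.6% for Kdr, 70.4% for Flt1, 51.2% for Tek, 44% for Esm1 and 62.4% for Angpt4, against a median of 52.4% over all windows. A match of letters is a description and not a site.

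The genes lie on 8 chromosomes of GRCm38 (GENCODE M21). The receptors Kdr (75932827 to 75978458, minus strand) and Flt1 (147561604 to 147726011, minus) are both on chromosome 5, and Tek (94739289 to 94874976, plus) is on chromosome 4. Vegfa is on chromosome 17 (46016993 to 46032369, minus), Vegfb on chromosome 19 (6982473 to 6987651, minus) and Vegfc on chromosome 8 (54077606 to 54187096, plus). Angpt1 is on chromosome 15 (42424723 to 42676977, minus), Angpt2 on chromosome 8 (18690263 to 18741562, minus) and Angpt4 on chromosome 2 (151911210 to 151945337, plus). Esm1 is on chromosome 13 (113209659 to 113218098, plus).

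**Figure D1:**
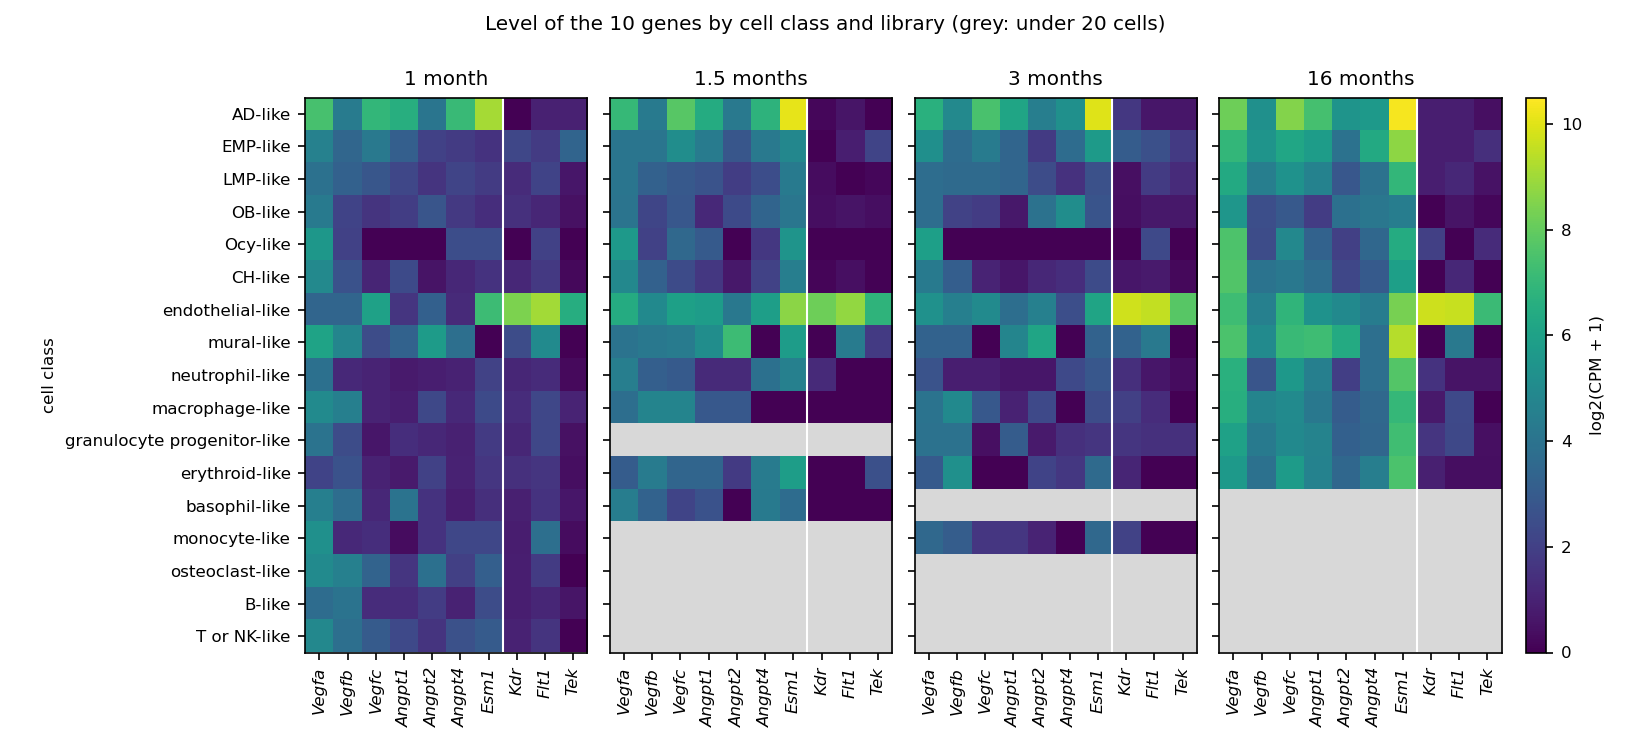
Level of each of the 10 genes, as log2(CPM + 1) in colour, by cell class (rows) and gene (columns) in the 4 libraries, with grey for classes under 20 cells. Left of the white line, Vegfa, Vegfc, Angpt1 and Esm1 are brightest in the AD-like row of each library, and right of it Kdr, Flt1 and Tek are bright in the endothelial-like row alone.

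Which cells carried the ligand RNA was asked first. AD-like cells held higher levels of most ligands and of Esm1 than the other bone marrow mesenchymal cells (1569, 1960, 1220 and 1054 cells, without chondrocytes) in every library. A gene was called higher when its CPM ratio was at least 2 and either group had at least 10 CPM. By this rule 7 of 7 tested members were higher in AD-like cells at 1 and 1.5 months and 6 of 7 at 3 and 16 months, against 14.4%, 15.5%, 15.4% and 16.9% of all genes tested. No member was called lower, against 6.71%, 7.28%, 8.46% and 6.31% of all genes, although Angpt4 at 16 months met the rule for a lower call (0.362 times) when up to 10% of mitochondrial UMIs was allowed. The receptors stayed under the minimum level in both groups and were not tested. The median log2 ratio of the 7 members was 3.21, 2.43, 1.77 and 1.67, against 0.24, 0.25, 0.25 and 0.39 over all genes.

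In this comparison Esm1 had the largest ratio among the members in each library. In AD-like cells it stood at 539 CPM (508 to 571), 1114 CPM (1090 to 1138), 1021 CPM (975 to 1069) and 1314 CPM (1302 to 1326). Other bone marrow mesenchymal cells had 3.60, 25.8, 27.6 and 97.9 CPM, and the ratios were 150 (117 to 195), 43.2 (39.6 to 47.2), 37.0 (32.4 to 42.5) and 13.4 (12.8 to 14.1). The ratio was smaller at each later age, although the AD-like level itself was lowest at 1 month. AD markers in the other bone marrow mesenchymal cells stood at 2.70%, 4.35%, 5.15% and 9.19% of the AD-like level. The part of this AD RNA in the Esm1 ratios was not tested. With every cell thinned to 3000 UMIs, 66.2%, 85.1%, 88.4% and 94.2% of AD-like cells had an Esm1 UMI (unthinned 80.1%, 91.8%, 92.4% and 98.98%), after 0, 2, 67 and 67 shallower cells were left out. Neutrophil-like cells had 0.592%, 5.88%, 1.64% and 19.0% (unthinned 2.69%, 21.6%, 3.31% and 21.5%), with 0, 0, 56 and 52 left out. Median depths were 7145, 5801, 3880 and 9595 UMIs in AD-like and 11699, 13531, 5975 and 5829 UMIs in neutrophil-like cells. So most AD-like cells carried Esm1 RNA, and at 16 months close to 1 in 5 background cells did too.

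Vegfc, the lymphatic growth factor, and Angpt1, the activating ligand of Tek, were also higher in AD-like than in other bone marrow mesenchymal cells. In AD-like cells Vegfc was counted at 124 CPM (110 to 140), 219 CPM (209 to 230), 176 CPM (157 to 197) and 378 CPM (372 to 384), compared with 9.63, 16.9, 17.1 and 28.9 CPM in the other bone marrow mesenchymal cells. Its ratio was nearly the same in the 4 libraries, at 12.9 (10.6 to 15.7), 12.98 (11.6 to 14.6), 10.3 (8.46 to 12.6) and 13.1 (11.9 to 14.4). For Angpt1 the AD-like values were 95.3 CPM (82.6 to 109), 86.3 CPM (79.8 to 93.2), 71.2 CPM (59.3 to 84.8) and 166 CPM (162 to 171), against 5.09, 6.73, 6.98 and 16.6 CPM. Its ratio was 18.7 (14.6 to 24.2), 12.8 (10.7 to 15.5), 10.2 (7.47 to 14.1) and 10.0 (8.83 to 11.4), highest at 1 month. AD-like cells were 3.27%, 22.7%, 10.1% and 60.6% of cells, and they held 40.03%, 75.9%, 54.4% and 92.2% of all Vegfc UMIs and 37.2%, 72.5%, 46.8% and 90.7% of all Angpt1 UMIs. After thinning, 32.0%, 47.6%, 38.1% and 62.6% of AD-like cells had a Vegfc UMI (unthinned 58.1%, 67.3%, 49.6% and 89.98%), against 0.161%, 1.96%, 0.234% and 6.90% of neutrophil-like cells.

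Vegfa, the main VEGF ligand, was highest in AD-like cells of each library but was spread over more classes. It stood there at 174 CPM (157 to 193), 130 CPM (122 to 138), 100 CPM (85.9 to 116) and 292 CPM (286 to 297). The other bone marrow mesenchymal cells had 29.0, 24.1, 29.4 and 91.4 CPM, which gives ratios of 6.004 (5.24 to 6.87), 5.39 (4.83 to 6.01), 3.404 (2.80 to 4.14) and 3.19 (3.02 to 3.37). The level was higher at 16 months than at any younger age in both groups, and the ratios of the younger pair of libraries lay above those of the older pair. AD-like cells held 15.4%, 40.9%, 21.3% and 79.4% of all Vegfa UMIs, a smaller share than for Vegfc in each library.

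Vegfb and Angpt2 were low. In AD-like cells Vegfb, the ligand of Flt1 alone among these receptors, had 19.7 CPM (14.2 to 26.6), 18.7 CPM (15.7 to 22.0), 29.96 CPM (22.4 to 39.2) and 37.7 CPM (35.8 to 39.7), with ratios of 2.49 (1.72 to 3.54), 2.21 (1.76 to 2.77), 2.92 (2.04 to 4.15) and 2.72 (2.35 to 3.15). It was not particular to them, since osteoclast-like (22.7 CPM) and macrophage-like cells (22.0 CPM) stood beside AD-like cells at 1 month, erythroid-like cells (37.1 CPM) at 3 months and EMP-like cells (42.6 CPM) at 16 months. In the same cells Angpt2, the context-dependent Tek ligand, had 16.0 CPM (11.1 to 22.3), 18.1 CPM (15.2 to 21.4), 21.5 CPM (15.2 to 29.5) and 42.5 CPM (40.4 to 44.6). Its ratios were 2.97 (1.95 to 4.43), 2.94 (2.30 to 3.77), 2.10 (1.40 to 3.09) and 2.47 (2.17 to 2.82). The intervals of 4 of these 8 ratios reach below 2. With cells thinned to 3000 UMIs the Angpt2 ratio was 1.24 at 1 month and 1.41 at 3 months, so the call was lost in both libraries.

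**Figure D2:**
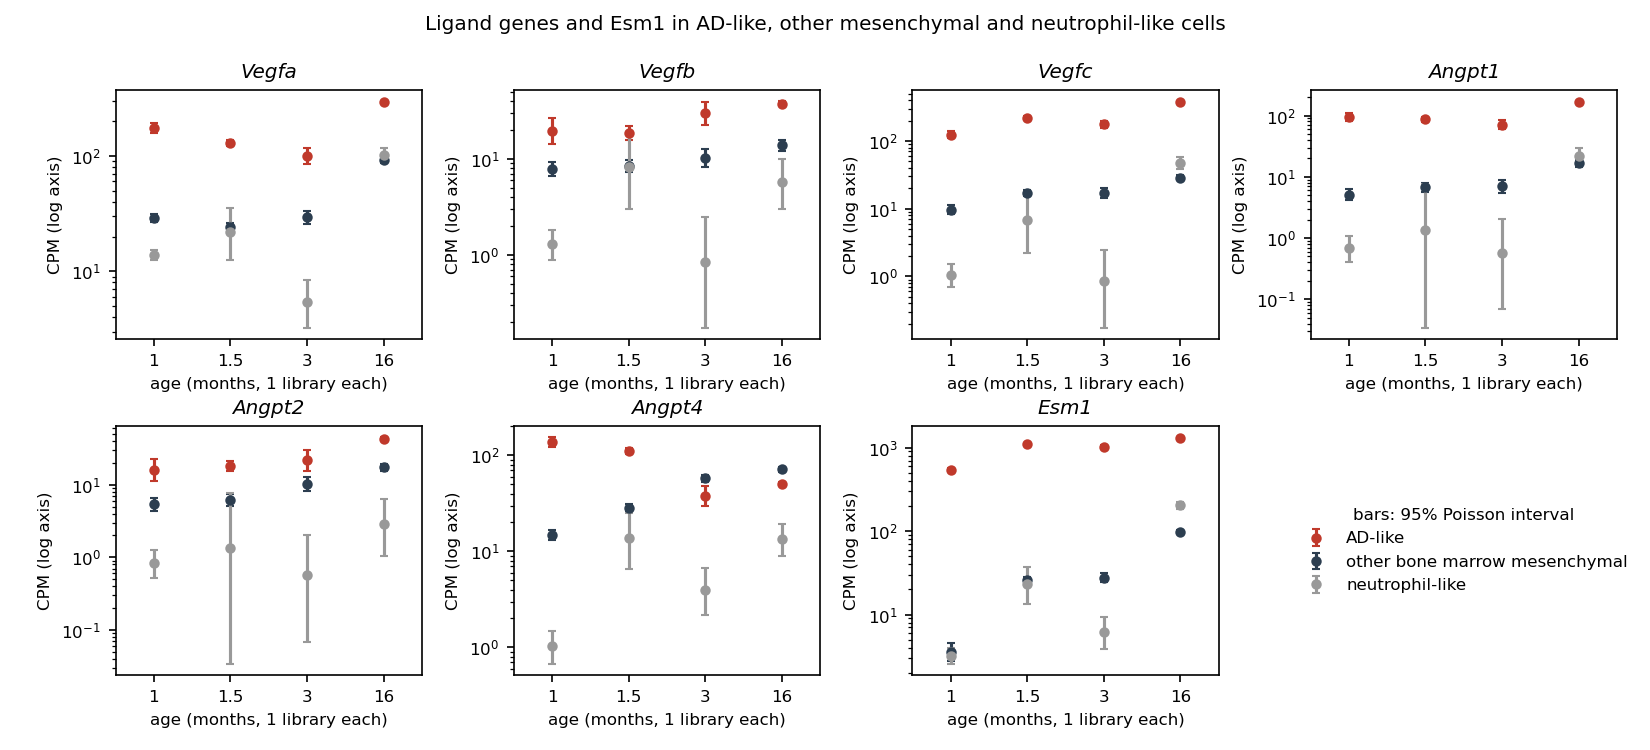
CPM on a log axis of the 6 ligand genes and Esm1 by age, 1 library each, in AD-like cells (red), other bone marrow mesenchymal cells (dark blue) and neutrophil-like cells (grey), with 95% Poisson intervals as bars. AD-like cells lie above the other mesenchymal cells in all 4 libraries for each gene except Angpt4, where the order turns between 1.5 months (111 against 28.5 CPM) and 3 months (37.9 against 57.4 CPM).

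Mural-like cells had the highest Angpt2 level among the named classes of each library, at 53.5 CPM (27.6 to 93.5), 146 CPM (111 to 189), 71.4 CPM (30.8 to 141) and 84.97 CPM (51.2 to 133), from 24, 64, 30 and 22 cells. Their ratio over AD-like cells was 3.35 (1.58 to 6.64), 8.07 (5.84 to 11.03), 3.32 (1.34 to 7.24) and 2.00 (1.201 to 3.13). The naming of these cells rests on the mural markers, at 9993, 13225, 14081 and 12182 CPM against 556, 499, 597 and 640 CPM in AD-like cells. AD markers in them summed to 861, 2696, 714 and 13139 CPM, the last well above the younger ages. Endothelial-like cells, a source of Angpt2 in many tissues, had 8.44, 17.2, 23.0 and 30.9 CPM. Without the endothelial-like cells that carried most AD markers, the rest had 7.15, 37.6, 24.1 and 15.2 CPM, from 10, 5, 32 and 12 UMIs.

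Angpt4 did not follow the other ligands. In AD-like cells it stood at 137 CPM (122 to 154), 111 CPM (103 to 119), 37.9 CPM (29.4 to 48.1) and 50.3 CPM (48.1 to 52.7), while the other bone marrow mesenchymal cells had 14.8, 28.5, 57.4 and 71.4 CPM. The ratio went from 9.27 (7.83 to 10.99) and 3.88 (3.49 to 4.32) at the younger ages to 0.659 (0.503 to 0.852) and 0.705 (0.654 to 0.760) at 3 and 16 months. At the older ages most Angpt4 UMIs of the other cells lay in 1 subcluster without a name in each library. At 3 months this was subcluster 6 (229 cells, led by Mmp9, Limch1 and Angpt4), with 236 CPM (213 to 261), and at 16 months subcluster 4 (376 cells, led by Spp1, Dmp1 and Col25a1), with 189 CPM (176 to 202). These levels were 6.22 times (4.79 to 8.19) and 3.75 times (3.45 to 4.07) those of AD-like cells, a pair of comparisons chosen after the values were seen. In the 1 and 1.5 month libraries, subcluster 8 (150 and 237 cells, led by Kcnk2, Npy and Slc20a2) had 79.9 CPM (66.1 to 95.8) and 143 CPM (126 to 160), which is 0.583 (0.466 to 0.725) and 1.29 (1.12 to 1.48) times the AD-like level. Subcluster 7 of the same libraries, led by the hemoglobin genes Hbb-bt, Hbb-bs and Hba-a1, had 39.7 and 103 CPM.

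Counts of cells gave the same order for Angpt4. After thinning, 45.9% of the cells of subcluster 6 at 3 months and 34.96% of those of subcluster 4 at 16 months had an Angpt4 UMI (unthinned 64.2% and 63.6%, with 11 and 7 shallow cells left out). AD-like cells had 28.7%, 23.1%, 11.3% and 11.4% (unthinned 44.5%, 35.004%, 13.5% and 26.8%). Neutrophil-like cells had 0.161%, 3.92%, 0.468% and 1.72%. OB-like cells, with 2.34, 9.43, 34.3 and 16.9 CPM, stayed below these subclusters in every library. EMP-like cells reached 82.7 CPM at 16 months, where they also held AD markers at 38.99% of the AD-like level.

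Subclusters of AD-like cells differed in the members they held. At 16 months the AD-like subclusters ranged from 125 to 434 CPM of Vegfa. The highest was subcluster 2 (855 cells, led by Il6, Ccl2 and Rab20) and the lowest subcluster 3 (705 cells, led by Cxcl13, Slc40a1 and Ttc14), a ratio of 3.46 (3.19 to 3.76). Subcluster 3 had more Angpt1, with 242 against 136 CPM (1.78 times, 1.64 to 1.92), more Vegfc, with 482 against 328 CPM (1.47 times, 1.40 to 1.55), and more Esm1, with 1539 against 1232 CPM (1.25 times, 1.21 to 1.28). At 1.5 months subcluster 0 (912 cells, led by Ccl2, Trf and Adipoq) had 154 CPM of Vegfa and subcluster 9 (325 cells, led by Esm1, Cxcl12 and Kng1) 52.4 CPM, a ratio of 2.95 (2.38 to 3.67). Esm1 was at 1018 and 1414 CPM in them, a ratio of 0.720 (0.687 to 0.754). At 1 month the subclusters with these numbers (223 and 49 cells) had 187 and 109 CPM of Vegfa, a ratio of 1.72 (1.23 to 2.47), but 542 and 521 CPM of Esm1, a ratio of 1.04 (0.888 to 1.23) whose interval includes 1. At 1.5 and 16 months the Vegfa-rich subcluster had Ccl2, a chemokine gene, among its 3 leading genes. These pairs were chosen after the values were seen.

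Individual AD-like cells seldom held UMIs of all 5 genes counted, a set without Vegfb and Angpt2. After thinning, an AD-like cell with UMIs of 2 of the 5 genes Vegfa, Vegfc, Angpt1, Angpt4 and Esm1 was common, at 33.5%, 40.6%, 42.1% and 37.3% of cells. Cells with all 5 were 0.368%, 0.486%, 0.282% and 1.12%, and cells with none 11.03%, 3.401%, 3.11% and 0.739%. At 3000 UMIs a cell, a gene without a UMI may still be expressed.

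Outside AD-like cells, Vegfa was higher in Ocy-like than in OB-like cells. The CH-like class as a whole had 30.1, 29.2, 19.3 and 200 CPM, near the other bone marrow mesenchymal cells at 1 and 1.5 months, below them at 3 months and above them at 16 months. At 3 months the class lacked 210 cells with chondrocyte genes, led by Col10a1, that were left out. Ocy-like cells had 45.6 CPM (30.8 to 65.1), 48.5 CPM (37.4 to 62.0), 59.6 CPM (33.3 to 98.2) and 187 CPM (156 to 222), which is 2.44 (1.56 to 3.70), 3.14 (2.25 to 4.36), 4.80 (2.47 to 8.83) and 4.12 (3.33 to 5.09) times the OB-like level. OB-like cells had 18.7, 15.4, 12.4 and 45.3 CPM, so the osteocyte class was the higher in each of the 4 libraries. Subcluster 8 at 1 and 1.5 months had 105 and 66.4 CPM, subcluster 6 at 3 months 86.6 CPM and subcluster 4 at 16 months 141 CPM, so the subclusters with the most Angpt4 outside AD-like cells also had much Vegfa.

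Among chondrocytes, Vegfa was highest in the subclusters led by Col10a1 and Ihh, genes of prehypertrophic and hypertrophic chondrocytes of the growth plate. At 1 month such a subcluster (79 cells) had 54.6 CPM, against 22.8 and 28.3 CPM in the larger CH-like subclusters (ratios 2.39, 1.65 to 3.51, and 1.93, 1.36 to 2.76) and 12.8 CPM in 1 of 44 cells. At 1.5 months it (532 cells) had 40.5 CPM, against 23.1 and 15.1 CPM (1.76, 1.50 to 2.06, and 2.69, 1.92 to 3.86), with 24.8 and 39.3 CPM (29.4 to 51.5) in 2 further subclusters of 210 and 203 cells. At 3 months a subcluster of 210 cells with these genes, left without a name, had 43.0 CPM, against 14.7 and 22.6 CPM (2.92, 2.01 to 4.30, and 1.90, 1.30 to 2.82), and 53 further CH-like cells had 32.4 CPM (19.5 to 50.7). At 16 months 62 CH-like cells led by Serpina1c, Col10a1 and Ihh had 358 CPM, against 99.8 CPM in the remaining 55 (3.58, 2.81 to 4.59). The direction was the same in the 4 libraries, and the comparisons were chosen after the values were seen.

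**Figure D3:**
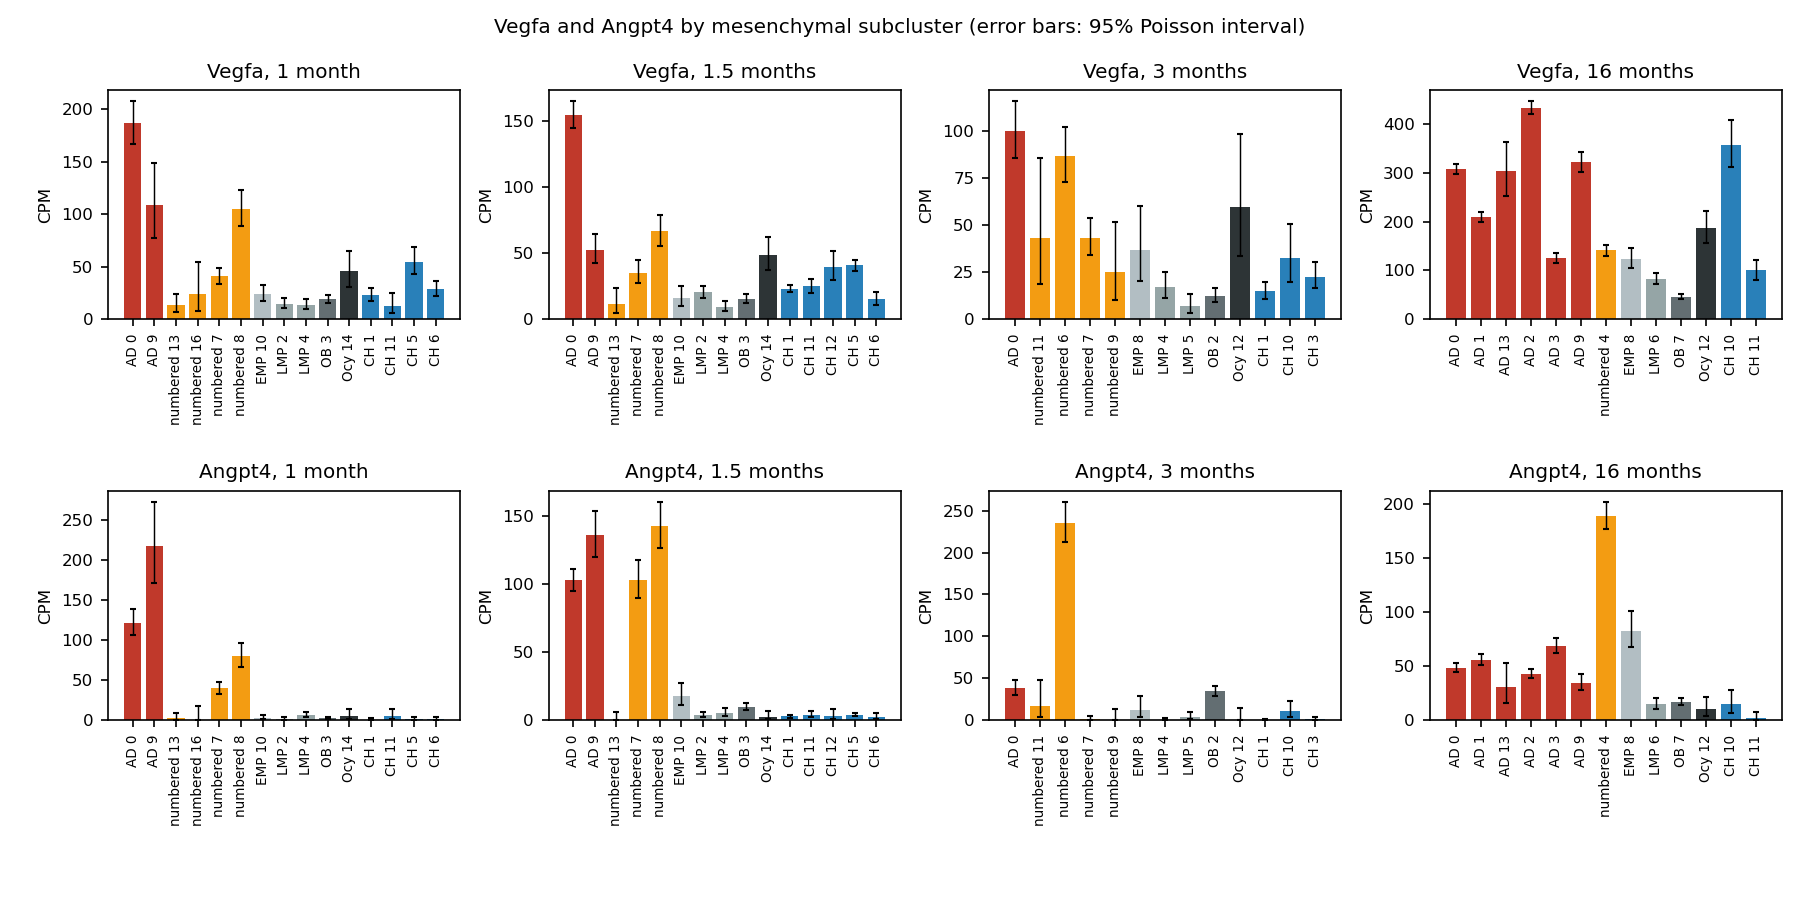
CPM of Vegfa (upper row) and Angpt4 (lower row) in each mesenchymal subcluster of the 4 libraries, with 95% Poisson intervals as error bars, in red for AD-like, orange for unnamed, grey shades for EMP-, LMP-, OB- and Ocy-like and blue for CH-like subclusters. Vegfa is highest in an AD-like subcluster of each library, while the tallest Angpt4 bar at 3 and 16 months is unnamed subcluster 6 (236 CPM) and unnamed subcluster 4 (189 CPM).

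Among hematopoietic classes of the 1 month library, Angpt1 was highest in basophil-like cells. The 664 basophil-like cells of the 1 month library had 15.1 CPM (12.7 to 17.9), against 0.683 CPM in neutrophil-like cells, a ratio of 22.2 (13.5 to 38.5). After thinning 4.97% of them had an Angpt1 UMI (unthinned 13.9%), against 0.108% of neutrophil-like cells (unthinned 0.807%). At 1.5 months 36 basophil-like cells held 3 Angpt1 UMIs, or 5.26 CPM (1.08 to 15.4), and the other 2 libraries had no such class.

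The receptor genes were found where the endothelial markers were. In endothelial-like cells Kdr stood at 341 CPM (311 to 373), 286 CPM (227 to 354), 847 CPM (800 to 895) and 821 CPM (775 to 868). All mesenchymal cells had 1.32, 0.192, 1.16 and 0.701 CPM, which gives ratios of 259 (184 to 376), 1489 (790 to 3097), 729 (475 to 1183) and 1171 (848 to 1663). AD-like cells held 0, 1, 4 and 32 Kdr UMIs. At 1 month the 0 UMIs allow up to 1.73 CPM. The level in endothelial-like cells was thus higher at 3 and 16 months than at 1 and 1.5 months, with intervals that do not overlap.

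For Flt1 the endothelial-like values were 523 CPM (486 to 562), 440 CPM (367 to 524), 751 CPM (708 to 797) and 780 CPM (735 to 826), and all mesenchymal cells had 2.22, 0.331, 1.55 and 0.756 CPM. The ratios were 236 (181 to 313), 1329 (817 to 2280), 485 (334 to 734) and 1031 (755 to 1444). Tek had 92.1 CPM (77.0 to 109), 114 CPM (78.1 to 159), 219 CPM (196 to 244) and 141 CPM (122 to 161), against 1.05, 0.174, 0.663 and 0.332 CPM, with ratios of 87.4 (57.8 to 137), 651 (313 to 1481), 331 (187 to 647) and 423 (261 to 729). Both were again higher at 3 months than at 1 month. Endothelial-like cells, 1.99%, 0.587%, 5.91% and 1.97% of all cells, held 79.1%, 87.4%, 96.4% and 95.1% of the Kdr UMIs, 73.2%, 82.6%, 96.5% and 94.4% of the Flt1 UMIs and 70.1%, 71.7%, 93.9% and 89.3% of the Tek UMIs.

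**Figure D4:**
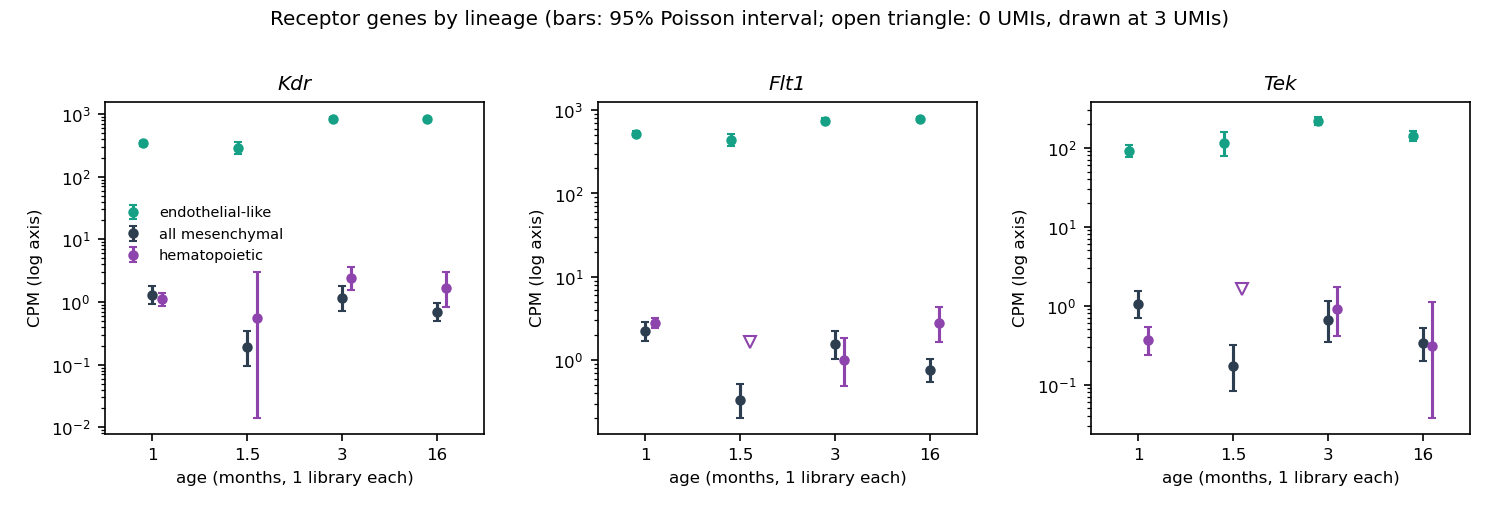
CPM on a log axis of Kdr, Flt1 and Tek by age, 1 library each, in endothelial-like (green), all mesenchymal (dark blue) and hematopoietic cells (purple), with 95% Poisson intervals as bars and an open triangle at 3 UMIs where no UMI was counted. Endothelial-like cells lie above both other groups in every library, with Kdr at 286 to 847 CPM against 0.192 to 1.32 CPM in mesenchymal cells.

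Most endothelial-like cells had a UMI of a VEGF receptor even after thinning. Kdr was found in 67.3%, 50%, 81.2% and 80.7% of them (unthinned 88.5%, 81.2%, 91.5% and 76.9%, with 0, 0, 18 and 33 shallow cells left out), and in 0.215% and 0.431% of neutrophil-like cells at 1 and 16 months. At 1.5 and 3 months it was found in 0 of 51 and 0 of 427 of these, which allows shares of up to 5.88% and 0.703%. Flt1 was found in 75.8%, 59.4%, 82.1% and 81.8% (unthinned 95.8%, 87.5%, 91.1% and 75.2%), and Tek in 24.2%, 25.0%, 44.5% and 35.2% (unthinned 49.7%, 53.1%, 64.4% and 62.8%). Endothelial-like cells had median depths of 7222, 8783.5, 5559 and 10359 UMIs. All 3 receptors were seen together in 12.7%, 9.38%, 34.1% and 26.1% of the thinned cells, and none of them in 10.3%, 21.9%, 4.37% and 3.41%.

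Receptor RNA outside the endothelial-like class was sparse. Monocyte-like cells at 1 month held 13.2 CPM of Flt1 (9.74 to 17.4), from 49 UMIs. This was 56.3 Flt1 UMIs per 100 UMIs of endothelial markers, against 9.86 per 100 in endothelial-like cells of the library, so the markers of endothelial RNA did not accompany it in the same ratio. At 3 months 122 monocyte-like cells held 0 Flt1 UMIs, which allows up to 3.92 CPM, so the 1 month level was not seen again. Mural-like cells held 31.2, 19.8, 17.9 and 17.9 CPM of Flt1, from 7, 8, 2 and 4 UMIs, and EMP-like cells 9.39 CPM of Tek (5.25 to 15.5) at 1 month, from 15 UMIs.

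Endothelial-like cells were also set against all mesenchymal cells for all members. By the same rule 5 of 8 tested members were higher at 1 month, 9 of 10 at 1.5 months, 5 of 10 at 3 months and 3 of 10 at 16 months, against 19.5%, 29.1%, 31.1% and 17.2% of all genes. The 1.5 month count rests on 32 cells and was 7 without likely doublets, 6 with means of single-cell CPM and 3 with thinned cells, which also gave 3 at 3 months. Lower calls numbered 3, 0, 1 and 4, against 13.5%, 9.7%, 12.8% and 12.1% of all genes. Kdr, Flt1 and Tek were called higher in every library, and the calls that differed between libraries were those of the ligands and Esm1. The median log2 ratio of the members tested was 1.77, 1.72, 0.65 and -0.51, against 0.27, 0.46, 0.48 and 0.11 over all genes.

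In endothelial-like cells Esm1, a tip cell gene elsewhere, stood at 144 CPM (125 to 165), 406 CPM (336 to 486), 69.7 CPM (56.9 to 84.5) and 329 CPM (300 to 359). Vegfc had 62.6 CPM (50.3 to 77.0), 61.9 CPM (36.7 to 97.9), 31.8 CPM (23.4 to 42.3) and 115 CPM (98.4 to 134). When endothelial-like cells with over 1% of their UMIs in AD markers were left out, 162, 15, 225 and 84 cells remained, and Esm1 had 142, 173, 35.4 and 53.2 CPM and Vegfc 62.9, 30.1, 25.6 and 40.6 CPM. The 1 month values hardly differed from those of all cells, and the 16 month values of both genes were well below them. The receptors moved the other way at 16 months, with Kdr at 1056, Flt1 at 1051 and Tek at 202 CPM in the cells kept. With these cells out, 5, 5, 4 and 3 members were called higher, against 19.7%, 33.8%, 31.6% and 20.9% of all genes, and 3, 1, 2 and 6 lower, against 13.6%, 11.5%, 13.7% and 18.2%.

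Levels at 16 months were compared with the mean of the 3 younger libraries, within a class. A member was called when this ratio was at least 2, or at most 0.5, and the 16 month value lay outside the range of the others. In AD-like cells 3 of 7 members were called higher, against 11.4% of all genes, and none lower, against 6.29%. These were Vegfa (2.17 times), Vegfc (2.18 times) and Angpt2 (2.29 times). Angpt1 was at 1.97, Vegfb at 1.66 and Esm1 at 1.47 times, and Angpt4 at 0.529 times, all short of the call. The median log2 ratio was 0.98 for the members and 0.04 for all genes. Leaving out the 3 month library brought Vegfa to 1.92 times and Angpt4 to 0.406 times, a lower call, and leaving out the 1 month library brought Vegfc to 1.91 and Angpt1 to 2.11 times. The calls of Vegfa and Vegfc therefore each rest on 1 younger library. At 16 months 2987 of 9229 barcodes were over the mitochondrial limit, against 98, 291 and 326 in the younger libraries. Its largest AD-like subcluster, number 0 (1063 cells), was led by Hsph1, Hspb1 and Rgs16, the first pair encoding heat-shock proteins. Without it 4 members were called higher, with Angpt1 at 2.02 times and Vegfa at 2.11 times, and none lower. The share of all genes called was not counted with a library or a subcluster left out. Without subcluster 2, Vegfa was at 1.83 times and not called, and in subcluster 3 alone it had 125 CPM against a mean of 134.6 CPM in the younger libraries. The part of cell state or of filtering in these age ratios was not tested.

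From age to neighbouring age in AD-like cells, the step from 3 to 16 months was the largest increase for Vegfa, Vegfc, Angpt1 and Angpt2. Vegfa moved by 0.745, 0.772 and 2.92 times over the 3 steps, Vegfc by 1.76, 0.805 and 2.14 times, Angpt1 by 0.906, 0.825 and 2.34 times and Angpt2 by 1.14, 1.18 and 1.98 times. Esm1 had its largest step from 1 to 1.5 months, at 2.07 times, then 0.917 and 1.29 times. Angpt4 had its largest step downward from 1.5 to 3 months, at 0.342 times.

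The same comparison was made in 5 other classes. EMP-like cells had 7 of 7 members called higher (23% of all genes), with Vegfa at 4.86 and Esm1 at 15.6 times, LMP-like cells 6 of 6 (19.3%), with Vegfa at 5.86 and Esm1 at 14.2 times, and CH-like cells 5 of 5 (20%), with Vegfa at 7.63 times. The Vegfa-rich subcluster with Col10a1 and Ihh was 62 of 117 CH-like cells at 16 months. It was 79 of 500 at 1 month and 532 of 1985 at 1.5 months. At 3 months 210 cells with these genes were left out of the class. The part of this mixture in the CH-like ratios was not tested. OB-like cells had 2 of 4 (7.62%), Vegfa at 2.92 and Esm1 at 2.64 times. Their Esm1 levels were 1.56 CPM, 16.6 CPM (13.5 to 20.1), 5.62 CPM and 20.9 CPM (17.6 to 24.7), so the intervals at 1.5 and 16 months overlap. Endothelial-like cells had 2 of 10 (14.6%), Vegfa at 3.36 and Vegfc at 2.21 times, while Kdr at 1.67, Flt1 at 1.36 and Tek at 0.993 times were not called. Without the endothelial-like cells rich in AD markers, Vegfc had 62.9, 30.1, 25.6 and 40.6 CPM. Its 16 month value then lay within the range of the younger libraries. Vegfa had 4.29, 37.6, 36.9 and 110 CPM in the cells kept and stayed highest at 16 months. No member was called lower in any of these 5 classes, against 9.64%, 10.1%, 16.2%, 8.14% and 13.3% of all genes in EMP-, LMP-, CH-, OB- and endothelial-like cells. AD markers at 16 months stood at 38.99% of the AD-like level in EMP-like, 9.44% in LMP-like, 5.35% in CH-like, 1.74% in OB-like, 30.1% in endothelial-like and 14.0% in neutrophil-like cells. At the younger ages they stood at 2.06%, 5.32% and 5.03% in EMP-like, 1.73%, 2.63% and 1.34% in LMP-like and 0.753%, 1.96% and 0.656% in CH-like cells. In OB-like cells the 1.5 month share (1.81%) was no lower than that at 16 months.

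Set beside these marker shares, Esm1 and Vegfc differed from Vegfa. Neutrophil-like cells at 16 months held 15.5% of the AD-like level of Esm1, 12.4% of Vegfc and 13.3% of Angpt1, close to their 14.0% of AD markers, but 34.9% of Vegfa, so they are no plain background for Vegfa. CH-like cells held 4.51% of Esm1 and 4.62% of Vegfc, close to their 5.35%, but 68.5% of Vegfa. EMP-like cells, with 38.99% of the markers, held 19.3% of Vegfc (15.5 to 23.7). OB-like cells held 1.59% of Esm1, close to their 1.74%, but 15.5% of Vegfa. Of 11 classes other than AD-like at 16 months, the share lay above that of the markers, with its whole interval, in 10 for Vegfa, 9 for Vegfb, 10 for Angpt4, 5 for Angpt2, 3 for Esm1, 2 for Angpt1 and 0 for Vegfc. The part of AD RNA in the age ratios of these classes was not tested.

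**Figure D5:**
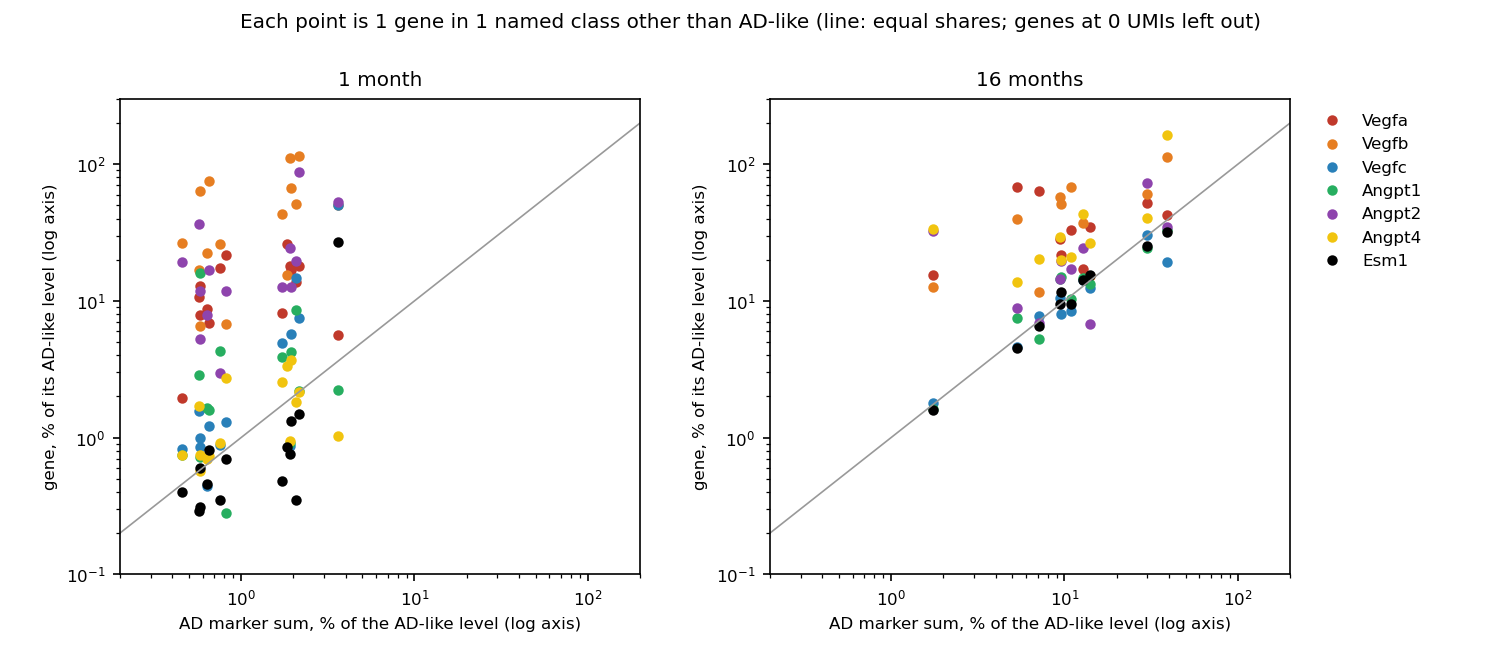
Level of each ligand gene and Esm1 in a class as a percentage of its AD-like level, against the summed AD markers of that class as a percentage of theirs, on log axes, at 1 and 16 months, where each point is 1 gene in 1 named class and the line marks equal percentages. At 16 months Esm1 and Vegfc lie near the line in neutrophil- and CH-like cells, Vegfc lies below it in EMP-like cells (19.3% with 38.99% of the markers), and Vegfa lies above it in most classes, at 68.5% in CH-like cells with 5.35% of the markers.

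Other genes of the pathway were read from fixed lists, with the same share of all genes called as for the members (higher in AD-like cells 14.4%, 15.5%, 15.4% and 16.9%). Of the ligands, Pgf, which binds Flt1, was tested and was higher in AD-like than in other bone marrow mesenchymal cells in each library (1 of 1), at 90.6, 100, 80.8 and 114 CPM and ratios of 3.37, 3.44, 2.48 and 2.50. Mural-like cells held 174, 164, 161 and 93.9 CPM of it. Of the receptors and co-receptors, 2 of 5 were tested, and the co-receptor Nrp1 was higher in AD-like cells in each library, at 448, 500, 517 and 414 CPM and ratios of 6.48, 7.84, 7.39 and 5.14. The related Nrp2 went the other way, with ratios of 0.552, 0.487, 0.293 and 0.289, and was called lower in the last 3 libraries.

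Of the secreted inhibitors and binding proteins, 5 of 6 were tested, of which 2, 2, 2 and 3 were higher and 2 lower in AD-like cells in each library. Adamts1, a secreted protease that binds VEGF, was higher at 360, 572, 410 and 619 CPM (ratios 3.89, 6.38, 4.26 and 3.16), and Svep1 was higher at 54.4, 73.6, 93.3 and 158 CPM (4.87, 6.24, 5.18 and 5.34). Serpinf1, which encodes the antiangiogenic PEDF, was lower with ratios of 0.108, 0.114, 0.0664 and 0.0708, as was Thbs2, an antiangiogenic thrombospondin, with 0.206, 0.145, 0.116 and 0.277. Of 14 hypoxia pathway genes, 12, 11, 10 and 11 were tested, 2, 2, 3 and 4 were higher and none lower, so the first 2 counts are near the share of all genes called. Epas1, which encodes HIF-2α, was higher at 162, 344, 512 and 834 CPM (10.8, 13.3, 18.4 and 8.07 times), while Hif1a was not called, at 1.55, 1.10, 1.13 and 1.85 times.

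In endothelial-like cells, 4, 4, 4 and 3 of the 5 other receptors and co-receptors were called higher than in all mesenchymal cells and none lower. Flt4, the receptor of Vegfc, had 82.3, 138, 214 and 487 CPM, Tie1, the co-receptor of Tek, 168, 179, 210 and 210 CPM, and Ptprb, the phosphatase that restrains Tek, 224, 169, 455 and 708 CPM. Flt4 was thus highest at 16 months, as was Ptprb. Of the VEGF response and tip cell genes, 8 were tested, 5, 5, 5 and 3 called higher (all genes 19.5%, 29.1%, 31.1% and 17.2%) and 0, 2, 0 and 0 lower (Unc5b and Nid2), among them the Notch ligand gene Dll4, at 67.5, 51.6, 81.2 and 115 CPM. Apln, another tip cell gene, had 84.4, 24.1, 16.9 and 3.36 CPM and was called in the 3 younger libraries.

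The endothelial-like cells of the 4 libraries were not alike in subtype genes. Sinusoidal genes summed to 1366, 3161, 4725 and 5770 CPM and arteriolar genes to 570, 124, 336 and 309 CPM. Stab2, a sinusoidal gene, had 54.1, 189, 459.5 and 391.5 CPM, and Gja4, an arteriolar gene, 256, 27.5, 100 and 55.8 CPM. Mki67, a gene of cycling cells, had 87.9, 20.6, 6.09 and 22.2 CPM. So the 3 and 16 month libraries had more Kdr, Flt1 and sinusoidal RNA than the 1 and 1.5 month libraries. Within each of these pairs the library with more Kdr had less sinusoidal RNA. The part of this mixture of subtypes in the receptor levels was not tested.

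The genes most like each member were taken over 51 profiles of a named class in a library, from 12475 genes, by Pearson's r of log2(CPM + 1). The profiles share libraries and depth, so r is a description. Esm1 was most like the AD-like genes Cxcl12 (0.97), Gdpd2 (0.97) and Adipoq (0.95), and Vegfc like Fbln5 (0.94), Cyp1b1 (0.92) and Cxcl12 (0.92). Angpt1 was most like Igfbp4 (0.91), Fst (0.90) and Csmd1 (0.89), Angpt2 like Pgf (0.85), Notch3 (0.81) and Tusc5 (0.80), and Angpt4 like Cldn10, Ackr4 and Mme (0.84 for Mme). Vegfa had looser likeness, with Pappa (0.81), Slc38a2 (0.81) and Rybp (0.80), and Vegfb was most like Asxl2 (0.81), Usp24 and Hsph1. Kdr was most like Dll4, Wscd1 and Bcl6b (0.94 for Bcl6b), Flt1 like Sox17, Emcn and Tie1 (0.92 for Tie1), and Tek like She (0.94), Magix (0.93) and Sox7 (0.93). Among the members, Esm1 and Vegfc had r = 0.91 and Kdr and Flt1 0.89.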

How the data were processed

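The authors deposited, for each library, a matrix of raw UMI counts, genes by barcodes, that was not normalized and still held the barcodes their own filter removes. Per the labels' processing notes these came from Cell Ranger 3.0.2, aligned to mm10 with the reporter added. The tables held 8417, 5745, 4516 and 9229 barcodes and 108227184, 63258961, 32672631 and 93269331 UMIs at 1, 1.5, 3 and 16 months. The 3 younger libraries list 27999 genes and the 16 month library 31054.

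Kept cells had between 200 and 6000 genes and no more than 5% of UMIs from mitochondrial genes, and 109, 292, 336 and 3086 barcodes were left out. Median depths of the kept cells were 10279.5, 9621, 6264 and 9670 UMIs. Cells were scaled to 10000 counts and clustered in 2 stages with Seurat 5.3.0 (R 4.3.3) on 2000 variable genes, 30 components and a resolution of 0.8, the 1 and 1.5 month libraries aligned by canonical correlation. The members, the pathway lists and the markers were kept out of the variable genes. Names needed 3 or more markers of a type that were at least 2-fold above their lower quartile over the clusters. These markers also had to be detected in 10% of the cells and at 25% or more of their highest level. Of the types that passed, the one with the most markers among the 10 leading genes of the cluster was taken. Clusters without a name kept numbers. Mixed clusters (84 and 3 cells), 210 cells with chondrocyte genes at 3 months and 312 shallow cells at 16 months were left out of the mesenchymal comparisons. Doublets stayed in the main result, and Scrublet (scanpy 1.11.5, expected share 8%) gave an alternative.

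CPM came from summed UMIs, with exact Poisson intervals. Ratios have exact conditional binomial and shares Clopper-Pearson intervals, computed with scipy 1.17.1, numpy 2.4.6 and pandas 2.3.3 (Python 3.11.15), all for counting error only. The limit for a count of 0 is 3 counts for shares and the upper end of the Poisson interval for CPM. The rule for calls was tested on simulated counts. Of the 26601 genes present in all tables, 26600 were matched by symbol and Vegfd by an older symbol. The members and lists were chosen with earlier results of these data known, so no count is independent support. The genes named are the members, the 3 most like each member, list genes with at least 50 CPM in a class compared, markers that check a class, and the 3 leading genes of a numbered cluster. Pairs of subclusters were chosen after their values were seen. Promoter windows (RefSeq) matched 8 of 10 members, and Angpt1 and Angpt2 had no entry.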

Additional observations from a re-analysis of the deposited data

Results flagged for a closer look

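The members below moved in opposite directions between libraries under the same contrast. The difference between libraries was not tested, since each age is 1 library.

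Angpt4 in AD-like over other bone marrow mesenchymal cells had ratios of 9.27 at 1 month and 3.88 at 1.5 months, and of 0.659 at 3 months and 0.705 at 16 months.

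In endothelial-like over all mesenchymal cells, Vegfa had ratios of 0.241, 2.12, 1.14 and 0.654 at 1, 1.5, 3 and 16 months. Angpt1 had 0.175, 3.67, 1.199 and 0.340, and Angpt4 0.0659, 2.19, 0.146 and 0.366. Vegfc had 3.73, 1.66, 1.22 and 0.431, and Esm1 3.13, 2.43, 0.606 and 0.355. The summed AD markers stood at 3.61%, 29.8%, 8.53% and 30.1% of the AD-like level in endothelial-like cells and at 10.0%, 15.8%, 12.6% and 71.1% in all mesenchymal cells, and their part in these ratios was not tested. Without the endothelial-like cells rich in AD markers, the 1.5 month ratios were 0.926 for Vegfa, 0.502 for Angpt1 and 0.281 for Angpt4. Those of Vegfc and Esm1 were 0.808 and 1.03. These ratios come from 15 cells with 5, 1, 1, 4 and 23 UMIs, in the same order.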

How the results depend on the processing

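The counts of members called higher in AD-like cells within a library changed by less than 1.5 times under each of 9 other settings (resolution 0.5 or 1.2, 20 components, 10% mitochondrial UMIs, doublets removed, means of single-cell CPM, thinned cells, CPM over all genes of a table, no minimum CPM). With cells thinned to 3000 UMIs, members called higher in endothelial-like cells were 3 at 1.5 months (9 in the main result, 7 without doublets, 6 with means of single-cell CPM) and 3 at 3 months (5 in the main result), the call of Angpt2 in AD-like cells was lost at 1 and 3 months, and the 1.5 month ratios of Vegfb and Angpt1 turned to 0.925 and 0.847. With the cells rich in AD markers left out, an alternative chosen after seeing the data, the 1.5 month count was 5. When each younger library was left out in turn, also chosen after seeing the data, 2 to 3 members were higher and 0 to 1 lower at 16 months in AD-like cells. Without the 16 month subcluster led by heat-shock genes, likewise chosen later, 4 were higher and 0 lower. Thinning and that alternative leave fewer UMIs and cells. Of 528 ratios of members under such settings, 432 stayed within the counting interval of the main value, 94 moved beyond it and 2 called ratios turned, while 10 further ratios that were not called crossed 1. In all 49 differed by over 1.5 times, among them 20 under thinning, 12 without doublets and 12 with the mean of single cells. At a resolution of 1.2 the Angpt4 ratio of AD-like cells was 14.5 at 1 month and 7.12 at 1.5 months, and with 10% mitochondrial UMIs allowed it was 0.362 at 16 months, which meets the rule for a lower call. No paired analysis was possible because each age is 1 library. The 32 endothelial-like cells at 1.5 months and the 24 and 22 mural-like cells at 1 and 16 months limit what their values can show.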
